A study of Mus musculus with 18 samples.

Results

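The 10 genes described here encode proteins that are switched on by the ERK pathway and in most cases act back on it: the phosphatases Dusp4, Dusp5 and Dusp6, the Sprouty proteins Spry1, Spry2 and Spry4, the Sprouty-related protein Spred1, the transcription factors Etv4 and Etv5, and Phlda1. They were chosen by symbol as known feedback and output genes, and they are 10 of the 26143 genes in the deposited table. All 10 were among the 15235 genes with enough reads to be tested. RNA was sequenced in 18 mouse libraries that the labels describe as squamous epithelium, in 4 groups. WT (n = 3) was wild type esophagus. p53 (n = 3) was tongue of mice heterozygous for LSL-p53+/R172H, E20 (n = 6) was tongue with LSL-PIK3CAH1047R, and E20/p53 (n = 6) was tongue with LSL-PIK3CAH1047R, LSL-p53+/R172H and K14-Cre. In an LSL allele a stop cassette flanked by loxP sites blocks the mutant copy until Cre recombinase cuts the cassette out. The labels name a Cre only for E20/p53, where the keratin 14 promoter drives it in basal cells of stratified epithelium. The series title speaks of tumors initiated by the carcinogen 4NQO, and the labels give neither the groups that received it, nor which libraries are tumor, nor age or sex. Wild type tissue was esophagus and mutant tissue was tongue, so in every comparison with WT the tissue and the genotype cannot be told apart. Whether the libraries of a group came from separate animals is not stated, so the p-values speak only to the spread among libraries and that spread may be technical. The spread is pooled over all 18 libraries. It therefore also holds the gaps between unlike libraries of E20 and of E20/p53 that are described below, in comparisons without those groups too.

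Growth factor receptors activate RAS, which acts through the RAF and MEK kinases on ERK, and active ERK phosphorylates transcription factors in the nucleus. Among the genes that ERK then induces are its own brakes. Dusp phosphatases remove the phosphates from ERK, Sprouty proteins act between the receptor and RAF, and Spred1 brings the RAS inhibitor neurofibromin to the membrane. The transcript levels of such genes are widely used as a readout of ERK output, and in stratified epithelium ERK signalling downstream of EGF and FGF receptors takes part in proliferation and repair. PIK3CA encodes the catalytic subunit of PI3-kinase, which the same receptors and RAS activate, and R172H is a change in the DNA-binding domain of p53.

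Of the 10 genes, 6 have a promoter window in the RefSeq table for GRCm38.p6, in 7 windows of 300 bases, since Etv5 has a pair of start sites. The windows were searched on both strands for motifs picked after the windows had been read. The CArG box, the element bound by serum response factor, was found in the Dusp5 window, as 2 adjacent boxes that do not overlap, and in 1.63% of all 32851 windows. Of the octamers bound by Capicua, a repressor that ERK inactivates, only TGAATGAA, TGAATGGA and TCAATGAA were searched. The remaining combination of the letters that vary among them was not searched, and its share of all windows was not counted. The printed Dusp6 stretch holds this form, read on the other strand as tccattga and left in lower case. Other windows without a match may also hold a Capicua octamer that was not searched. One of the searched octamers lay in the Spry2 window, read on the other strand as TTCATTGA, and at least 1 of them lay in 3.18% of all windows. The ETS octamer CCGGAAGT (3.89% of all windows), the AP-1 site TGAGTCA (5.20%) and the cAMP response element TGACGTCA (1.79%) were in none of the 7 windows. These 3 sequences are shown because Dusp5 and Spry2 hold the matches and because Dusp6 had the widest range of levels of the 10 genes. Each is the stretch of the window before both the RefSeq and the GENCODE start of the gene, 5′ to 3′ on the strand of the gene, and capitals mark the matched motif. Dusp5 is at chr19:53528895-53529108 on the plus strand, Spry2 at chr14:105896820-105897069 on the minus strand and Dusp6 at chr10:99262981-99263230 on the plus strand.
Dusp5: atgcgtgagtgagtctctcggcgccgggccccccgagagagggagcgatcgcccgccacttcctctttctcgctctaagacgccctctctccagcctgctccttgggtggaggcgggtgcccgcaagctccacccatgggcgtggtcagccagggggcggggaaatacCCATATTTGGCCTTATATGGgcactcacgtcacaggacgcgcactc
Spry2: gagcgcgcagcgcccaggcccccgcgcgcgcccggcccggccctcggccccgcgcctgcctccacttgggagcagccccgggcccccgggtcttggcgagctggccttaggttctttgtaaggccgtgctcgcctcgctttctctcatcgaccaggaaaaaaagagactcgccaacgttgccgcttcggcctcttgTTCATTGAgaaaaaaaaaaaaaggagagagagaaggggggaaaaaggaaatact
Dusp6: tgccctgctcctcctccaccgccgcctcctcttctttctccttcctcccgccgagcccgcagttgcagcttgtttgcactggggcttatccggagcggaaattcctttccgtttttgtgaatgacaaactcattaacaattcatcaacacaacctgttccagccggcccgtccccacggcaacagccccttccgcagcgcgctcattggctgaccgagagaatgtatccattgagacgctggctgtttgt
The Dusp5 boxes CCATATTTGG and CCTTATATGG spanned positions -82 to -73 and -72 to -63 from the RefSeq start at 53529145, and the Spry2 match spanned -54 to -47 from the RefSeq start at 105896819. The printed Dusp5 stretch stops before 53529109, where GENCODE M21 starts the gene, upstream of the RefSeq start. A match describes the letters of a window and is not evidence of binding.

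Levels are given as counts per 1000000 reads of the scaled library total (CPM), and libraries held 14592044 to 18176060 reads. The 18 libraries fell into 6 sets of 3 that the data show and the labels do not name: WT, p53, and replicates 1 to 3 and 4 to 6 of both E20 and E20/p53. Pearson's r across genes was 0.991 to 0.994 inside a set and 0.859 to 0.944 between the sets of a group, as a description only. Between libraries of different groups it was 0.809 to 0.948, so the sets of a group were no closer than some libraries of different groups. The sets are not groups of the study, and no test was made between the sets of E20 or between those of E20/p53. Fits with a set left out put the remaining 3 libraries of that group against the other groups. They show how a call depends on sets that were seen in these same data. Their p-values are not evidence about a set. Of 10 markers of stratified keratinocytes, 7 reached 1 CPM in E20/p53 1 to 3, 6 in WT, 5 in E20 1 to 3, 2 in p53, and 1 in both E20 4 to 6 and E20/p53 4 to 6. Krt14, whose promoter drives the Cre, stood at 483 CPM in E20/p53 1 to 3 and at 0.199 CPM in E20/p53 4 to 6, and it was at 0.0222 CPM in E20 4 to 6 and 0.695 CPM in p53, so the label of squamous epithelium is not borne out by its markers in these 3 sets. In E20 1 to 3, keratinocyte markers summed to 118 to 137 CPM and fibroblast markers to 16885 to 18941 CPM, so the label is not settled there either. Xist averaged 893 CPM in E20 1 to 3, 1303 CPM in E20 4 to 6 and 0.826 CPM or less elsewhere, and the Y-linked gene Eif2s3y was at 0 in WT and E20 and at 67.6 to 103 CPM in p53 and E20/p53. In RNA pooled over many cells, fewer cells of a type and less RNA per cell cannot be told apart.

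The 3 phosphatases had the widest range of levels. Dusp6, which acts on ERK in the cytoplasm (chr10:99263231-99267489, plus strand, on GRCm38 as in GENCODE M21), was read at 137, 140.0 and 135 CPM in WT and at 23.7, 19.9 and 21.2 CPM in p53. In E20 it was read at 32.0, 33.1 and 33.8 CPM in replicates 1 to 3 and at 37.1, 35.5 and 36.1 CPM in replicates 4 to 6. In E20/p53 the readings were 177, 183 and 181 CPM in replicates 1 to 3 against 11.7, 9.60 and 9.87 CPM in replicates 4 to 6. The double mutants thus held both the highest and the lowest Dusp6 levels of the study, 17.3-fold apart, and the 6 sets did not overlap. Dusp4, a nuclear phosphatase of ERK and related kinases (chr8:34807297-34819894, plus strand), was read at 193, 199.8 and 196 CPM in WT and at 45.3, 44.6 and 48.3 CPM in p53. Its E20 levels were 13.3, 15.2 and 17.2 CPM in replicates 1 to 3 and 31.4, 36.2 and 34.0 CPM in replicates 4 to 6. Its E20/p53 levels were 110.1, 105 and 111 CPM in replicates 1 to 3 and 19.7, 17.4 and 21.2 CPM in replicates 4 to 6. WT was highest, E20/p53 1 to 3 came next, E20 1 to 3 was lowest at 12.9-fold under WT, and again no sets overlapped. Dusp5, a nuclear phosphatase for ERK (chr19:53529109-53542431, plus strand), was much lower in reads, with 10.6, 9.20 and 8.24 CPM in WT and 11.8, 11.4 and 11.7 CPM in p53. In E20 it was read at 2.86, 2.75 and 2.52 CPM in replicates 1 to 3 and at 2.78, 2.87 and 2.47 CPM in replicates 4 to 6, so the sets overlapped. In E20/p53 the order of the sets was the opposite of that of Dusp4 and Dusp6, with 1.60, 1.51 and 1.57 CPM in replicates 1 to 3 and 3.87, 4.03 and 4.87 CPM in replicates 4 to 6. The Dusp5 values of E20/p53 1 to 3 rest on 26, 27 and 28 reads. An antisense gene, AC137853.2, overlaps Dusp5, and the strand setting of the counting is not given, so reads of the pair cannot be told apart.

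**Figure D1:**
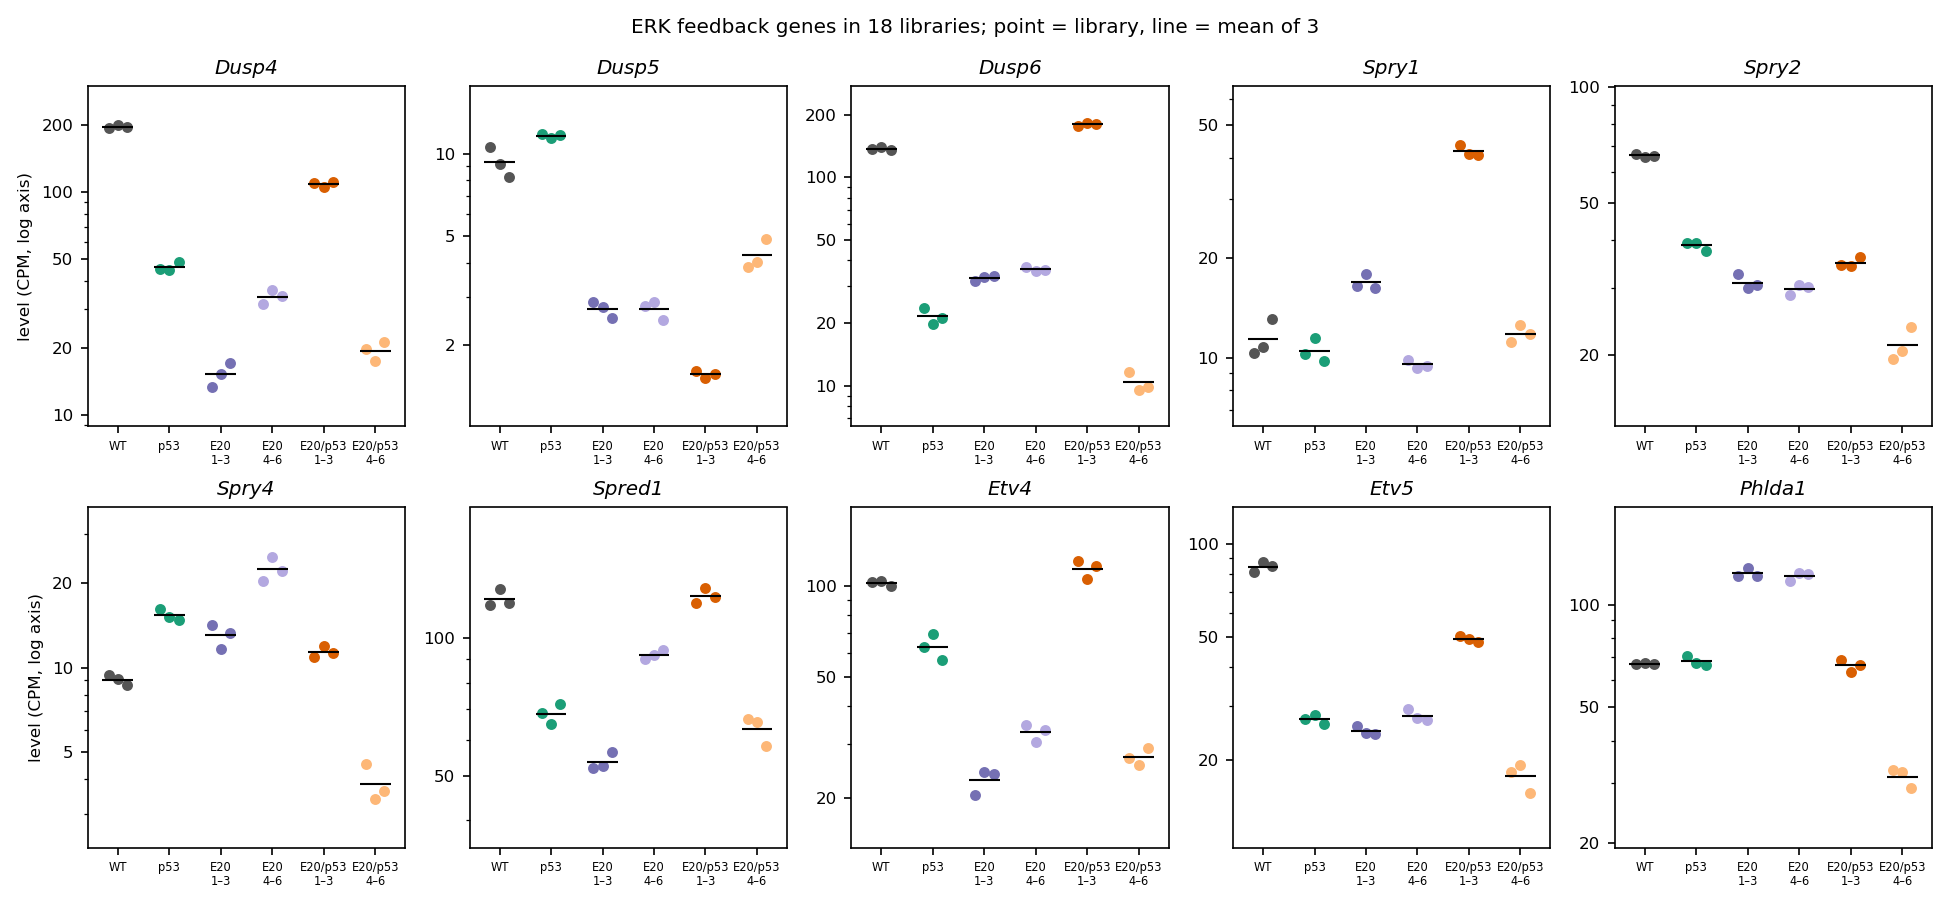
Level of each of the 10 genes (CPM, log axis) in the 18 libraries, with 1 panel per gene, 1 column per library set, a point per library and a line at the mean of 3. Dusp6 spans 10.4 CPM in E20/p53 4 to 6 to 180 CPM in E20/p53 1 to 3, and points of 1 set lie close together in every panel.

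The Sprouty genes and Spred1 covered smaller ranges and did not share 1 order of sets. Spry1 (chr3:37639947-37644598, plus strand) was read at 10.4, 10.8 and 13.1 CPM in WT and at 10.3, 11.5 and 9.77 CPM in p53. In E20 it was read at 16.4, 17.9 and 16.3 CPM in replicates 1 to 3 and at 9.88, 9.34 and 9.48 CPM in replicates 4 to 6. Its E20/p53 levels were 43.7, 40.9 and 40.6 CPM in replicates 1 to 3 and 11.1, 12.6 and 11.8 CPM in replicates 4 to 6. Only E20/p53 1 to 3 and, less so, E20 1 to 3 stood clear of the others, since E20/p53 4 to 6 overlapped WT, WT overlapped p53 and p53 overlapped E20 4 to 6. A predicted gene on the opposite strand, Gm42922, overlaps Spry1. Spry2 (chr14:105891947-105896819, minus strand) was read at 67.0, 65.9 and 66.3 CPM in WT and at 39.2, 39.2 and 37.5 CPM in p53. In E20 its levels were 32.5, 29.9 and 30.4 CPM in replicates 1 to 3 and 28.8, 30.5 and 30.2 CPM in replicates 4 to 6. In E20/p53 they were 34.4, 34.2 and 36.0 CPM in replicates 1 to 3 and 19.6, 20.57 and 23.7 CPM in replicates 4 to 6. Spry2 was highest in WT and lowest in E20/p53 4 to 6, and apart from the E20 sets, which overlapped, neighbours in the order were separate.

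Spry4, on chromosome 18, was read at 9.37, 9.08 and 8.66 CPM in WT and at 16.2, 15.1 and 14.8 CPM in p53. In E20 it was read at 14.2, 11.7 and 13.3 CPM in replicates 1 to 3 and at 20.38, 24.8 and 22.0 CPM in replicates 4 to 6. In E20/p53 it was read at 10.9, 11.9 and 11.2 CPM in replicates 1 to 3 and at 4.53, 3.41 and 3.62 CPM in replicates 4 to 6. Its highest set was E20 4 to 6 and its lowest was E20/p53 4 to 6, 5.82-fold apart, and E20 1 to 3 overlapped E20/p53 1 to 3. Spred1 (chr2:117121374-117182279, plus strand) was read at 118, 129 and 119 CPM in WT and at 68.7, 64.8 and 71.8 CPM in p53. In E20 its levels were 52.1, 52.4 and 56.2 CPM in replicates 1 to 3 and 90.0, 92.0 and 94.3 CPM in replicates 4 to 6. In E20/p53 they were 119.9, 129 and 123 CPM in replicates 1 to 3 and 66.5, 65.5 and 58.1 CPM in replicates 4 to 6. Spred1 had the narrowest range of the 10 genes, 2.32-fold, and E20/p53 1 to 3 overlapped WT at the top of its order.

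Etv4 and Etv5, ETS transcription factors of the PEA3 family that ERK signalling induces, were both high in WT and in E20/p53 1 to 3. Etv4 (chr11:101769742-101785371, minus strand) was read at 103, 104 and 99.7 CPM in WT and at 62.9, 69.5 and 56.8 CPM in p53. In E20 it was read at 20.45, 24.4 and 24.0 CPM in replicates 1 to 3 and at 34.6, 30.4 and 33.4 CPM in replicates 4 to 6. Its E20/p53 levels were 121, 105 and 116 CPM in replicates 1 to 3 and 27.0, 25.6 and 29.1 CPM in replicates 4 to 6. No neighbouring sets overlapped for Etv4, and the highest, E20/p53 1 to 3, was 4.98-fold above the lowest, E20 1 to 3. Etv5 (chr16:22381309-22439719, minus strand) was read at 81.2, 87.5 and 84.8 CPM in WT and at 27.1, 28.0 and 26.2 CPM in p53. In E20 its levels were 25.7, 24.5 and 24.3 CPM in replicates 1 to 3 and 29.2, 27.3 and 27.1 CPM in replicates 4 to 6. In E20/p53 they were 50.5, 49.3 and 48.2 CPM in replicates 1 to 3 and 18.3, 19.3 and 15.6 CPM in replicates 4 to 6. For Etv5, p53 overlapped E20 4 to 6 in the middle of the order, and E20/p53 4 to 6 was lowest.

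Phlda1, a small protein with a pleckstrin homology-like domain that is induced by ERK signalling (chr10:111506286-111508645, plus strand), was highest in the E20 sets. It was read at 66.9, 67.7 and 67.1 CPM in WT and at 70.5, 67.6 and 66.7 CPM in p53. In E20 it was read at 121, 128 and 121 CPM in replicates 1 to 3 and at 118, 123 and 123 CPM in replicates 4 to 6. Its E20/p53 levels were 68.8, 63.7 and 66.6 CPM in replicates 1 to 3 and 32.8, 32.3 and 29.1 CPM in replicates 4 to 6. The E20 sets overlapped each other and lay above all 12 other libraries, while WT overlapped both p53 and E20/p53 1 to 3. A noncoding gene on the opposite strand, Gm28592, overlaps Phlda1.

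Across the 6 sets, the median range of the 10 genes was 2.28 log2 units, and that of all genes tested was 1.26. The highest set was E20/p53 1 to 3 for 4 genes (Dusp6, Spry1, Spred1 and Etv4) and WT for 3 (Dusp4, Spry2 and Etv5), where E20/p53 1 to 3 and WT were highest for 20.39% and 23.0% of all genes tested. E20/p53 4 to 6 was lowest for 5 genes (Dusp6, Spry2, Spry4, Etv5 and Phlda1), where it was lowest for 12.2% of all genes tested. With median-of-ratios size factors the count of genes highest in E20/p53 1 to 3 was 3.

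**Figure D2:**
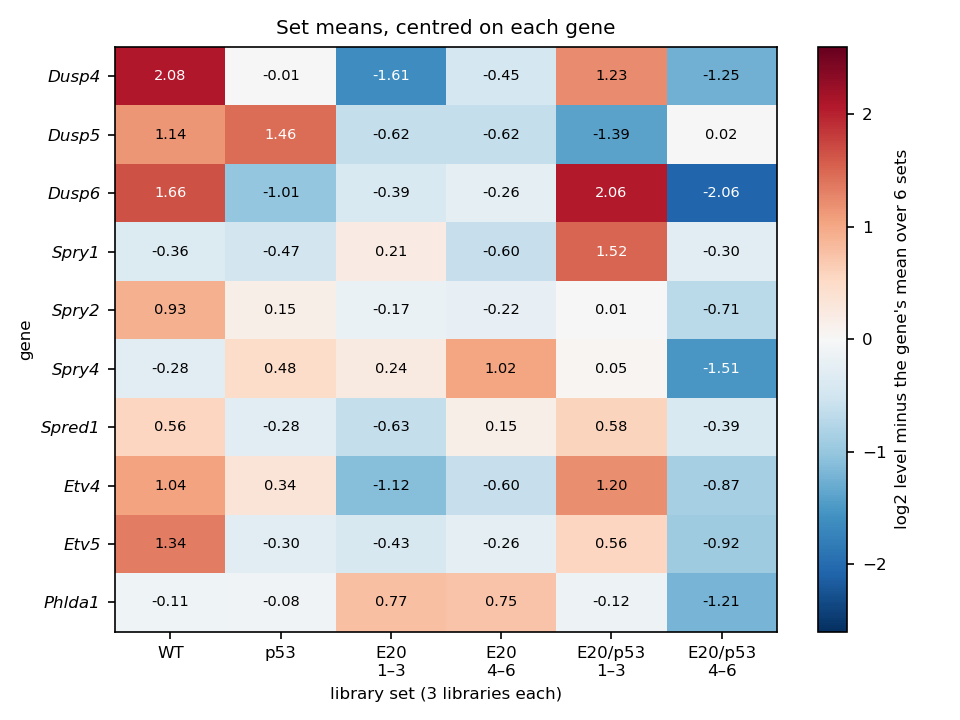
Mean log2 level of each gene in each of the 6 library sets, minus the mean of that gene over the 6 sets, with the value printed in each cell. The cells of E20/p53 4 to 6 are negative apart from Dusp5 at 0.02, and the E20/p53 1 to 3 column is positive apart from Dusp5 at -1.39 and Phlda1 at -0.12.

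Within the double mutants, the feedback genes differed between the sets, and mostly one way. All 10 lay without overlap, as did 80.3% of all genes tested. Replicates 4 to 6 lay below replicates 1 to 3 without overlap for 9 of the 10 genes, where 38.8% of all genes tested did so, and above them for 1, Dusp5, where 41.4% of all genes did so. The largest differences were those of Dusp6 (log2 difference -4.11, or 17.3-fold lower), Dusp4 (-2.49, 5.60-fold lower), Etv4 (-2.07, 4.19-fold lower) and Spry1 (-1.82, 3.53-fold lower). Spry4 (-1.56), Etv5 (-1.48), Phlda1 (-1.08), Spred1 (-0.97) and Spry2 (-0.72) followed. Dusp5 was 2.72-fold higher in replicates 4 to 6, a log2 difference of 1.41. The median difference of the 10 genes was -1.52, and that of all genes tested was 0.02. With plain sums of reads as library totals these medians were -1.73 and -0.19, and the same count of 9 lower and 1 higher was found.

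Several cell type markers moved with this difference. Summed over the list, keratinocyte markers ranged from 1088 to 1098 CPM in E20/p53 1 to 3 and from 4.03 to 5.20 CPM in E20/p53 4 to 6, where Krt5, Krt15, Krt6a, Krt4 and Epcam were at 0. Fibroblast markers, of which 5 of 7 reached 1 CPM in both sets, ranged from 111 to 115 CPM and from 19711 to 21691 CPM. Skeletal muscle markers, at 1 CPM for 2 of 7 and 6 of 7, ranged from 4.69 to 5.27 CPM and from 400.3 to 439 CPM, and smooth muscle markers, at 1 CPM for 2 of 4 and 3 of 4, from 409 to 430 CPM and from 3462 to 3625 CPM. Endothelial markers did not exceed 5.73 CPM and leukocyte markers 22.9 CPM in any library. The part of these cell types in the levels of the feedback genes was not tested.

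Within E20, the sets were closer for these genes. Replicates 4 to 6 lay above replicates 1 to 3 for 6 genes, below for 1 and overlapped for 3, where 33.2% of all genes were higher and 34.7% lower, or 67.9% without overlap. The higher genes were Dusp4 (log2 difference 1.16), Spry4 (0.78), Spred1 (0.78), Etv4 (0.52), Etv5 (0.17) and Dusp6 (0.14), and the lower gene was Spry1 (-0.81). Dusp5, Spry2 and Phlda1 overlapped. The median difference of the 10 genes was 0.15, and that of all genes was -0.02. Keratinocyte markers also differed between the E20 sets, at 118 to 137 CPM in replicates 1 to 3 and 3.30 to 3.60 CPM in replicates 4 to 6, while fibroblast markers were at 16885 to 18941 and 18002 to 19295 CPM. Smooth muscle markers were at 4499 to 4829 CPM in replicates 1 to 3 and 921 to 964 CPM in replicates 4 to 6, skeletal muscle markers at 536 to 591 and 620 to 666 CPM, and leukocyte markers at 17.12 to 20.31 and 3.09 to 4.47 CPM. The part of these cell types in the differences was not tested.

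**Figure D3:**
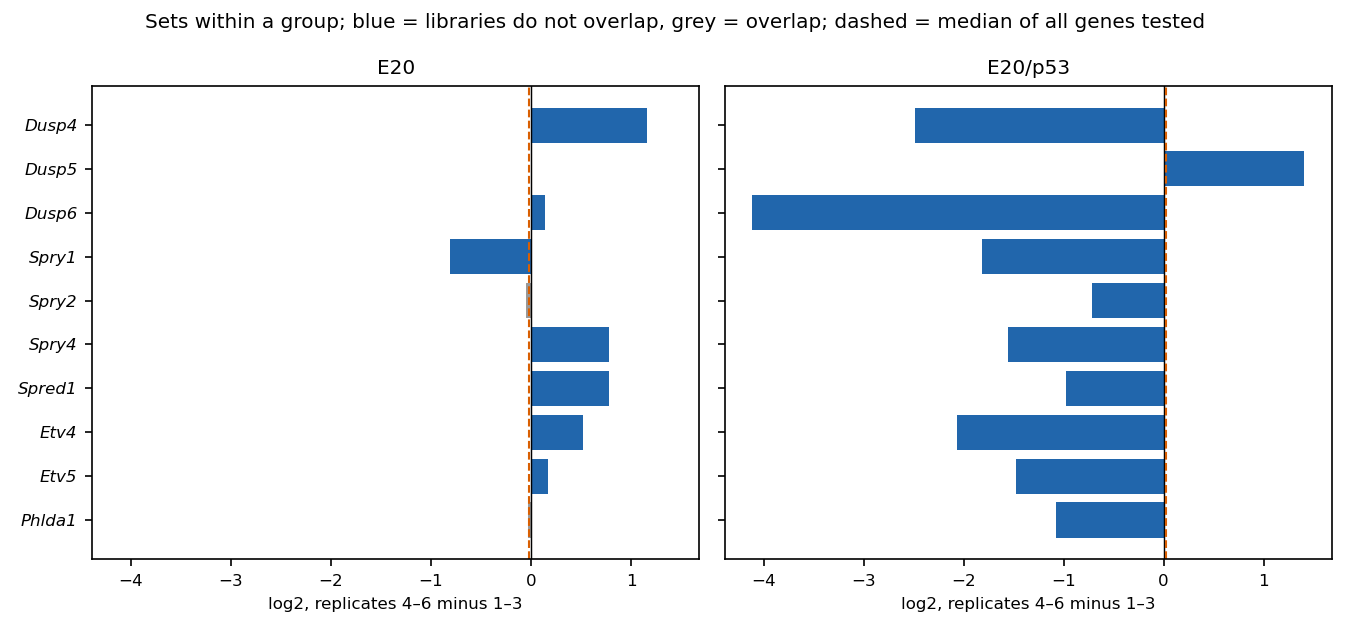
Log2 difference of replicates 4 to 6 minus replicates 1 to 3 for each gene, in E20 and in E20/p53, coloured by whether the 3 libraries of both sets overlap, with a dashed line at the median of all genes tested. In E20/p53, 9 genes lie to the left of 0 and Dusp5 lies at 1.41, while the E20 values run from -0.81 for Spry1 to 1.16 for Dusp4.

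The comparison of E20/p53 with E20 sets tongue with both alleles against tongue with the PIK3CA allele. The labels name K14-Cre for E20/p53 only, and Xist was high in E20 while Eif2s3y was read in E20/p53, so the p53 allele, the labelled Cre and the sex that these genes mark cannot be told apart. By limma, with Benjamini-Hochberg adjustment over all 15235 genes and a threshold of 0.05, 1 of the 10 genes was higher and 2 were lower in E20/p53, where 42.6% of all genes tested were called (23.0% higher and 19.6% lower). Phlda1 fell from 122 ± 3.52 (SD, n = 6) to 48.9 ± 19.3 CPM (n = 6), a log2 change of -1.42 ± 0.19 (SE) with an adjusted p of 2.48e-05 by limma, and the groups did not overlap. Phlda1 was the 1 gene of the 10 without overlap, as were 22.5% of all genes tested. Spry4 fell by 1.36 ± 0.32 (adjusted p = 0.00268 by limma), with overlap of libraries, since its E20/p53 1 to 3 levels reached those of E20 1 to 3. Etv4 rose by 1.02 ± 0.38 (adjusted p = 0.0393 by limma), from 27.9 ± 5.74 to 70.7 ± 47.9 CPM, and this mean joined a set above every E20 library to a set inside their range. The other 7 did not pass, among them Dusp4 (1.02 ± 0.49, adjusted p = 0.103 by limma), Spry1 (0.80 ± 0.36, adjusted p = 0.0804) and Dusp6 (0.32 ± 0.73, adjusted p = 0.743). Without E20/p53 1 to 3, limma called 6 members (1 higher and 5 lower) and 52.9% of all genes, with Dusp6 at -1.73, Etv5 at -0.57 and Etv4 at -0.01, and without E20/p53 4 to 6 it called all 10 (7 higher and 3 lower) and 65.1% of all genes, with Dusp6 at 2.38, Dusp4 at 2.26 and Spry2 at 0.20. The Etv4 call was lost without any one of E20 replicates 1, 2, 3 and 5 or E20/p53 replicates 1, 2 and 3 (adjusted p 0.0538 to 0.0948 by limma), without either E20 set (0.236 and 0.0608) and with the 2 groups alone (0.0927), and that of Spry4 without E20 4 to 6 (-0.97, 0.0646). Without 1 library, Dusp4 passed when E20/p53 replicate 4 or 5 was left out (adjusted p = 0.0443 and 0.0351 by limma), and Spry1 when replicate 4, 5 or 6 was (0.0288, 0.0397 and 0.0334). The count of members called ran from 2 to 5 over the left-out libraries, and that of all genes called from 5840 to 6836 of 15235. With plain sums of reads, 64.7% of the genes called among all genes were higher, in place of 54.0%, and the member counts were the same.

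Taken by replicate numbers, the same comparison split. The labels do not say that equal numbers mark a shared batch, so the values are a description. Between replicates 1 to 3, E20/p53 lay above E20 without overlap for 7 genes and below for 2, where 41.1% and 38.2% of all genes tested did so. Between replicates 4 to 6, it lay above for 2 genes and below for 8, where 40.2% and 35.4% of all genes did so. Dusp6 differed by 2.45 log2 units in replicates 1 to 3 and by -1.80 in replicates 4 to 6, Dusp4 by 2.84 and -0.80, Etv4 by 2.31 and -0.27, Spred1 by 1.21 and -0.54, Etv5 by 0.99 and -0.66, and Spry2 by 0.17 and -0.49. Dusp5 went the other way, at -0.77 and 0.63. These 7 genes lay without overlap in opposite directions, as did 29.3% of all genes tested. Spry1 was higher in both (1.31 and 0.30), Phlda1 was lower in both (-0.90 and -1.95), and Spry4 overlapped in replicates 1 to 3 and was lower in replicates 4 to 6 (-2.53).

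In E20/p53 against p53, tongue with both alleles was set against tongue with the p53 allele, and the PIK3CA allele cannot be told apart from the Cre that the labels name for E20/p53 only. In this comparison 0 of the 10 genes were higher (1, Spry1, at an unadjusted p under 0.05) and 3 were lower by limma, where 25.8% of all genes tested were called (12.9% in each direction). Dusp5 fell by 2.15 ± 0.33 (adjusted p = 0.000189 by limma), from 11.6 ± 0.195 (n = 3) to 2.91 ± 1.52 CPM (n = 6), and no library of E20/p53 reached those of p53. The 3 genes called were the 3 of the 10 without overlap, where 32.5% of all genes tested did not overlap. Spry4 fell by 1.21 ± 0.39 (adjusted p = 0.0314 by limma) and Spry2 by 0.51 ± 0.17 (adjusted p = 0.0356 by limma). Dusp4 had a log2 change of -0.00, Etv4 of -0.18 and Etv5 of 0.12, each a mean of a set above p53 and a set below it. The Spry4 and Spry2 calls were lost without any 1 p53 library (adjusted p 0.0819 to 0.099 and 0.0839 to 0.108 by limma), with plain sums of reads (0.0591 and 0.146) and with the 2 groups alone (0.108 and 0.15), and that of Spry2 also without E20/p53 replicate 5 or 6 (0.0524 and 0.0523) and without E20 4 to 6 (0.0507). Without E20/p53 4 to 6 the Spry4 change was -0.43 (0.117). The fit without E20/p53 1 to 3 called 8 members, 0 higher and 8 lower, and 34.2% of all genes, and the fit without E20/p53 4 to 6 called 8, of which 6 were higher and 2 lower, and 63.9% of all genes. Spry1 (1.08, adjusted p = 0.0796 by limma) passed without E20/p53 replicate 4, 5 or 6 (0.0318, 0.042 and 0.0361), and Phlda1 (-0.58, 0.0825) passed without replicate 1 or 3 (0.0355 and 0.0418). The count of members ran from 1 to 4 over the left-out libraries, and that of all genes called from 2331 to 4691 of 15235.

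In E20 against p53, which carry 1 mutant allele each in the same tissue and also differ in Xist and Eif2s3y, 1 gene was higher and 1 lower by limma, where 30.9% of all genes tested were called (14.5% higher and 16.4% lower). Phlda1 rose by 0.84 ± 0.24 (adjusted p = 0.013 by limma), from 68.3 ± 1.99 CPM in p53 to 122 ± 3.52 CPM in E20. Dusp5 fell by 2.08 ± 0.33 (adjusted p = 0.000162 by limma), to 2.71 ± 0.172 CPM in E20. Etv4 (-1.20 ± 0.46, adjusted p = 0.0608), Dusp4 (-1.02 ± 0.60, adjusted p = 0.211) and Dusp6 (0.68 ± 0.89, adjusted p = 0.604) did not pass by limma, although the E20 libraries of each lay on 1 side of the p53 libraries. The groups did not overlap for 6 of the 10 genes and for 45.5% of all genes tested. The SEs of the fit come from all 18 libraries, the unlike E20/p53 sets included. With E20 and p53 alone limma called 6 members and 42.2% of all genes, and without either E20/p53 set 6 members and 51.2% or 51.4% of all genes, with Etv4 at an adjusted p of 0.000537, Dusp6 at 0.000134 and Dusp4 at 0.0381 in the fit of the 2 groups. The Etv4 call appeared without E20/p53 replicate 1, 3, 4, 5 or 6 (adjusted p 0.0421 to 0.0497 by limma), and that of Phlda1 was lost without E20 4 to 6 (0.86, 0.0518).

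Against wild type esophagus, the feedback genes that passed in the fit of all 18 libraries were lower in tongue with 1 exception. WT also differed from E20 in Xist and from p53 and E20/p53 in Eif2s3y, and the labels name K14-Cre for E20/p53 only. These differences cannot be told apart from those of tissue and genotype. In p53 against WT, 0 genes were higher (0 also at an unadjusted p under 0.05) and 5 lower by limma, where 54.2% of all genes tested were called (29.3% higher and 24.9% lower). These were Dusp6 (-2.67 ± 1.03, adjusted p = 0.0374), Dusp4 (-2.09 ± 0.69, adjusted p = 0.0173), Etv5 (-1.64 ± 0.38, adjusted p = 0.00176), Spred1 (-0.83 ± 0.32, adjusted p = 0.0354) and Spry2 (-0.78 ± 0.19, adjusted p = 0.00295). The groups did not overlap for 8 of the 10 genes and for 82.2% of all genes tested. Here too the SEs come from all 18 libraries, the unlike E20/p53 sets included. The Dusp6 SDs were 1.95 CPM in p53 and 2.69 CPM in WT. The Dusp6 and Spred1 calls were lost without any 1 library of either group (adjusted p 0.0697 to 0.0835 and 0.0622 to 0.0869 by limma), which left 3 members and 6987 to 7235 of 15235 genes called. That of Dusp6 was also lost without either E20 set (0.0611 and 0.0613). With p53 and WT alone 8 members and 80.7% of all genes were called, and without either E20/p53 set 8 members and 67.9% or 68.3% of all genes, with Etv4 (5.25e-07), Spry4 (7.3e-06) and Dusp5 (0.0195) added in the fit of the 2 groups. Spry4 and Dusp5 were then higher in p53, by 0.76 and 0.32.

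In E20 against WT, 1 gene was higher and 6 lower by limma, where 55.3% of all genes tested were called (29.0% higher and 26.4% lower). Dusp4 fell by 3.11 ± 0.60 (adjusted p = 0.000335 by limma), from 196 ± 3.20 CPM (n = 3) to 24.6 ± 10.4 CPM (n = 6), or 8.65-fold. Etv4 (-1.90 ± 0.46, adjusted p = 0.0025), Dusp5 (-1.76 ± 0.33, 0.000272), Etv5 (-1.68 ± 0.33, 0.000391), Spry2 (-1.13 ± 0.17, 2.99e-05) and Spred1 (-0.80 ± 0.27, 0.0213) also fell. Phlda1 rose by 0.87 ± 0.24 (adjusted p = 0.00567 by limma). The groups did not overlap for 9 of the 10 genes, Spry1 being the exception, and for 64.3% of all genes tested. Dusp6 (-1.99 ± 0.89, adjusted p = 0.0684 by limma) and Spry4 (0.91 ± 0.39, 0.0568) fell short of the threshold and passed with the 2 groups alone (7.3e-09 and 0.00877). Over the left-out libraries the count of members ran from 6 to 9, and that of all genes called from 7163 to 8581 of 15235. The Spred1 call was lost without any 1 WT library (0.0513 to 0.0692) and without E20 1 to 3 (-0.41, 0.236), Dusp6 passed without E20/p53 replicate 2, 5 or 6 (0.0474 to 0.0497), and Spry4 passed without E20 replicate 2 or E20/p53 replicate 1, 2, 3, 5 or 6 (0.0387 to 0.0491). With plain sums of reads, 41.8% of the genes called among all genes were higher, in place of 52.3%, and the member counts were the same.

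In E20/p53 against WT, 0 genes were higher (1, Spry1, at an unadjusted p under 0.05) and 4 lower by limma, where 48.1% of all genes tested were called (26.5% higher and 21.6% lower). These were Dusp4 (-2.10 ± 0.60, adjusted p = 0.00828), Dusp5 (-1.83 ± 0.33, 0.00024), Etv5 (-1.51 ± 0.33, 0.00117) and Spry2 (-1.29 ± 0.17, 9.16e-06), which were also the 4 genes without overlap, where 50.5% of all genes tested did not overlap. Dusp6 (-1.66 ± 0.89, 0.134), Etv4 (-0.88 ± 0.46, 0.131) and Spred1 (-0.46 ± 0.27, 0.177) did not pass. Without E20/p53 1 to 3 limma called 9 members and 67.6% of all genes, with Dusp6 at -3.72 and Etv4 at -1.91. Without E20/p53 4 to 6 it called 6 members (2 higher and 4 lower) and 58.3% of all genes. The higher genes were Dusp6 at 0.39 (adjusted p = 0.000198 by limma) and Spry1 at 1.87 (1.35e-05). Etv4, Spry4 and Spred1 stood at 0.16, 0.33 and 0.02 and were not called. Over the left-out libraries the count of members ran from 4 to 6, and that of all genes called from 5929 to 7614 of 15235. Spry1 (0.96, 0.0791) passed without E20/p53 replicate 4, 5 or 6 (0.0327, 0.0438 and 0.0378), Phlda1 (-0.56, 0.0633) without replicate 1, 2 or 3 (0.0196, 0.0294 and 0.0237), and Etv4 without replicate 1 (0.0481). Cell type markers also differed from WT in tongue, although not all of them in every set. Keratinocyte markers stood at 122 to 126 CPM in WT, 5.80 to 7.70 CPM in p53 and 118 to 137 CPM in E20 1 to 3. They stood at 3.30 to 3.60 CPM in E20 4 to 6, 1088 to 1098 CPM in E20/p53 1 to 3 and 4.03 to 5.20 CPM in E20/p53 4 to 6. Simple epithelial keratins stood at 273 to 289 CPM in WT and 9.38 CPM or less in tongue. Fibroblast markers stood at 1445 to 1567 CPM in WT and 8463 to 9228 CPM in p53, above which lay both E20 sets and E20/p53 4 to 6, while E20/p53 1 to 3 lay below WT. Skeletal muscle markers stood at 5.28 to 5.89 CPM in WT, 1330 to 1444 CPM in p53 and 536 to 666 CPM in E20. In E20/p53 they stood at 4.69 to 5.27 CPM in replicates 1 to 3 and 400.3 to 439 CPM in replicates 4 to 6. Smooth muscle markers stood at 924 to 994 CPM in WT and 2484 to 2811 CPM in p53. They stood at 4499 to 4829 and 921 to 964 CPM in E20 1 to 3 and 4 to 6, and at 409 to 430 and 3462 to 3625 CPM in those of E20/p53. The part of these cell types in the differences from WT was not tested.

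The 6 comparisons share groups, so their values are set side by side only. The median log2 change of the 10 genes was -0.74 in p53 against WT, -1.40 in E20 against WT and -1.08 in E20/p53 against WT, where the medians of all genes were 0.04, 0.04 and 0.05. Within tongue it was -0.00 in E20 against p53, -0.09 in E20/p53 against p53 and 0.25 in E20/p53 against E20, where all genes gave -0.01, 0.02 and 0.05. With plain sums of reads the medians of all genes were -0.10, -0.13, -0.01, -0.04, 0.11 and 0.16 in the same order.

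**Figure D4:**
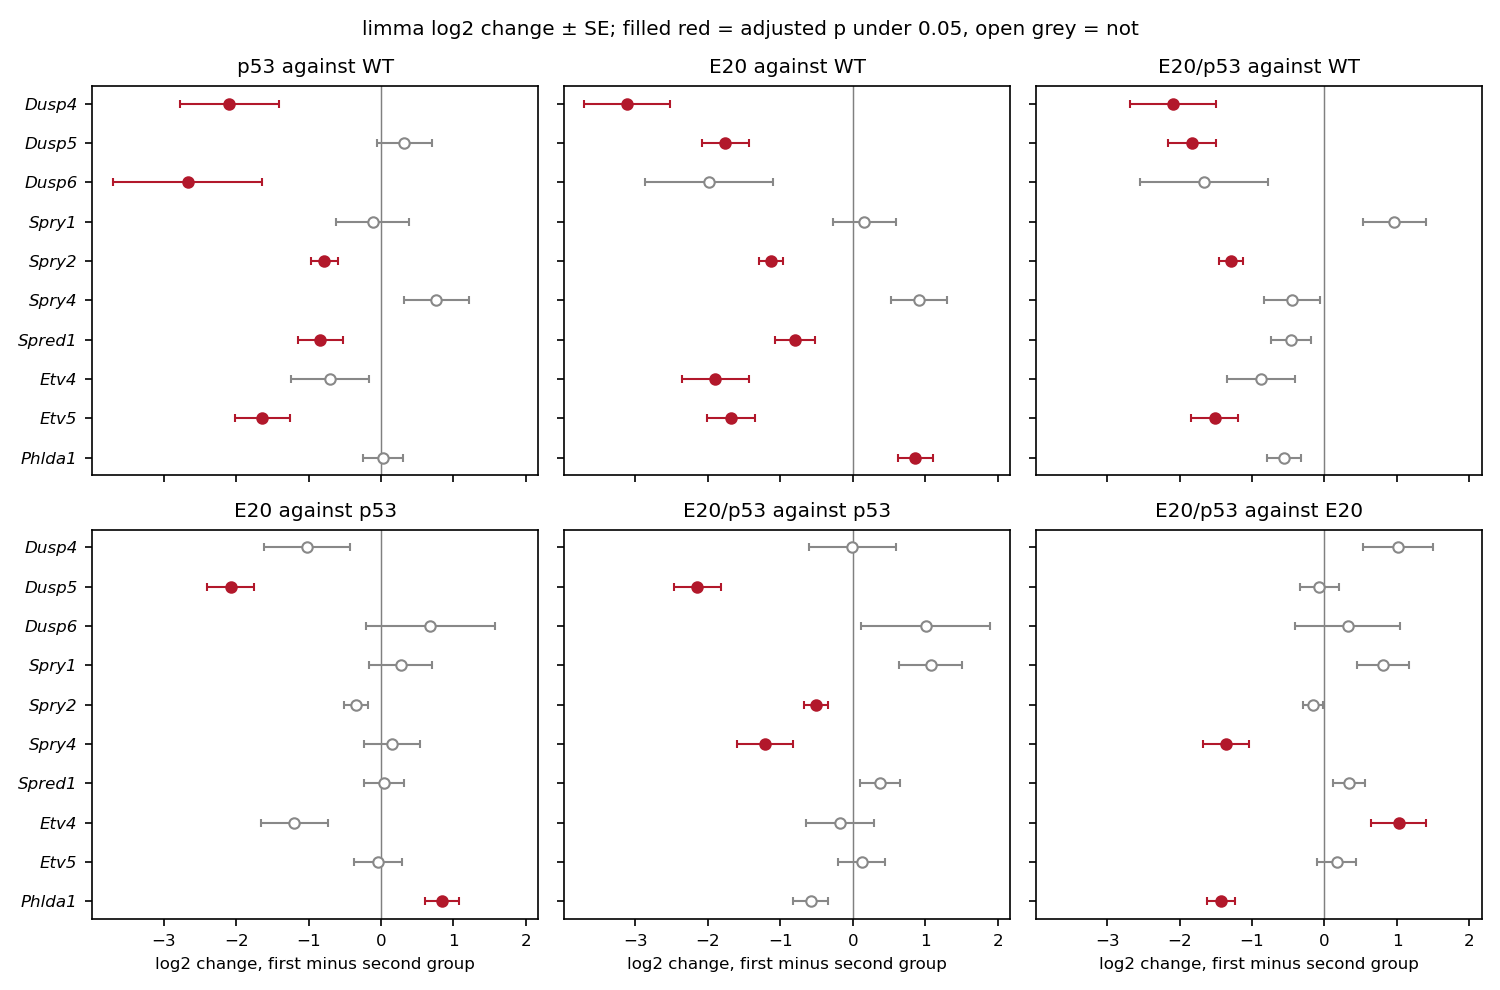
Log2 change with its SE for each gene in the 6 comparisons, from 1 limma fit of 18 libraries, with filled red points at an adjusted p under 0.05 and open grey points otherwise. Called genes lie to the left of 0 in the comparisons with WT apart from Phlda1 in E20, and the bars of Dusp6 and Dusp4 are the longest.

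Per kilobase of exon in GENCODE M21, the gene that led the 10 changed between sets. Dusp4 led in WT at 71.7 CPM per kilobase, ahead of Dusp6 at 43.8, and Dusp6 led in E20/p53 1 to 3 at 57.6, ahead of Dusp4 at 39.7. Phlda1 led in the other sets, at 31.0 in p53, 56.1 in E20 1 to 3, 55.0 in E20 4 to 6 and 14.2 CPM per kilobase in E20/p53 4 to 6. Spry4 was the lowest of the 10 in WT (1.90), p53 (3.23) and E20/p53 4 to 6 (0.81), and Dusp5 in E20 1 to 3 (1.10), E20 4 to 6 (1.09) and E20/p53 1 to 3 (0.63).

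Likeness of pattern was measured by the root mean square difference of log2 levels over the 18 libraries, each gene centred on its own mean, so that 0 means the same pattern. The closest pair among the 10 genes was Spry2 and Etv5, at 0.379, followed by Spry4 and Phlda1, at 0.387. Dusp4 was nearest to Etv4 (0.530), Etv4 to Etv5 (0.513), Spred1 to Etv5 (0.433), Spry1 to Spred1 (0.720) and Dusp6 to Dusp4 (0.824). Dusp5 had the most distant nearest member, Spry2 at 0.878. Among all genes tested, the nearest were Rab11fip1 to Dusp4 (0.335), Hsf2bp to Dusp5 (0.333), Zfp36l1 to Dusp6 (0.263), Sgsh to Spry1 (0.178), Gprc5b to Spry2 (0.135), Slfn9 to Spry4 (0.253), Etnk1 to Spred1 (0.0644), Hmga1 to Etv4 (0.219), Nbea to Etv5 (0.154) and Acot1 to Phlda1 (0.247). These distances rest on 6 unlike sets more than on 18 independent libraries, and genes nearer than the nearest member numbered from 5 for Spry4 to 3358 for Spry1.

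The rest of the pathway was read in 6 lists. Of all genes tested, 54.2%, 55.3% and 48.1% were called in p53, E20 and E20/p53 against WT. In E20 against p53, E20/p53 against p53 and E20/p53 against E20 the shares were 30.9%, 25.8% and 42.6%. The counts below stand beside these shares, and no list was tested as a set. Of 20 ligands of receptor tyrosine kinases, 18 were tested, with 7 higher and 2 lower in p53 against WT, 6 and 5 in E20 against WT, 4 and 4 in E20/p53 against WT, 2 and 4 in E20 against p53, 0 and 5 in E20/p53 against p53, and 6 and 5 in E20/p53 against E20. Hgf, the ligand of the MET receptor, averaged 18.6 and 53.8 CPM in E20 1 to 3 and 4 to 6 and 0.703 and 1.58 CPM in those of E20/p53, a log2 change of -4.89 ± 0.37 (adjusted p = 4.56e-08 by limma). Fgf1 was likewise lower in E20/p53 than in E20 (-2.68 ± 0.24, adjusted p = 2.9e-07), and in E20 against WT so were Pdgfb (-6.58 ± 0.64, 3.02e-07) and Fgf5, at 12.8 ± 0.273 CPM in WT and 0.0114 ± 0.028 CPM in E20 (1.65e-09). Pdgfb stood at 26.6 ± 0.749 CPM in WT and 0.307 ± 0.292 CPM in E20. Of 13 receptors, 12 were tested, with 4 higher and 5 lower, 3 and 7, 3 and 5, 0 and 3, 0 and 4, and 3 and 5 in the same order of comparisons. Igf1r, the receptor of insulin-like growth factor, was lower in E20/p53 (94.1 ± 4.22 CPM) than in WT (208 ± 8.53 CPM), a change of -1.14 ± 0.06 (adjusted p = 4.19e-10 by limma), and its sets in tongue ran only from 90.4 to 114 CPM. Pdgfra, which is also in the fibroblast marker list, was 5.55 ± 0.42 higher in p53 than in WT (adjusted p = 2.49e-08), Erbb3 was lower in E20 than in p53 (-4.90 ± 0.55, 6.67e-06), and Insr lower in E20 than in WT (-0.93 ± 0.15, 9.52e-05). Erbb3 stood at 3.60 ± 0.989 CPM in p53 and 0.065 ± 0.057 CPM in E20. Erbb3, Pdgfb and Fgf5 each had E20 libraries at 0, so the size of their log2 changes depends on the 1 read added before the log.

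All 19 genes of the relay from adaptor to ERK were tested, with 8 higher and 8 lower, 7 and 6, 4 and 6, 4 and 4, 4 and 2, and 4 and 6 in the same order. The shares of all genes called were again 54.2%, 55.3%, 48.1%, 30.9%, 25.8% and 42.6%. Mapk3, which encodes one of the ERK kinases, was lower in p53 (131 ± 5.75 CPM) than in WT (281 ± 3.95 CPM), by a log2 change of -1.11 ± 0.09 (adjusted p = 5.61e-08 by limma). Rras was lower in p53 than in WT (-1.08 ± 0.11, 5.7e-07) and Araf in E20 than in WT (-0.59 ± 0.06, 9.45e-07), while Sos1, the exchange factor that loads RAS, was higher in both E20/p53 sets (88.7 and 90.9 CPM) than in both E20 sets (51.5 and 62.6 CPM), by 0.66 ± 0.07 (1.4e-06). Of 7 RAS GTPase activating proteins, 0 were higher and 1 lower, 1 and 1, 1 and 2, 2 and 0, 1 and 1, and 1 and 1 in the same order. Dab2ip was lower in E20/p53 than in E20 (-0.71 ± 0.09, adjusted p = 1.22e-05 by limma), Rasa3 was lower in E20/p53 than in WT (-0.90 ± 0.23, 0.00405), and Nf1, which encodes neurofibromin, was higher there (0.42 ± 0.13, 0.0152). The Nf1 call was lost without WT replicate 1 (0.065), without E20/p53 1 to 3 (0.0844) and with plain sums of reads (0.0508).

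Of 14 other brakes on the pathway, 13 were tested, with 3 higher and 3 lower, 3 and 4, 0 and 3, 1 and 5, 0 and 4, and 3 and 3 in the same order of comparisons. Here too 54.2%, 55.3%, 48.1%, 30.9%, 25.8% and 42.6% of all genes were called. Il17rd, which encodes Sef, a membrane inhibitor of FGF receptor and ERK signalling, differed little inside a genotype group: it averaged 46.7 and 53.17 CPM in E20 1 to 3 and 4 to 6 and 9.56 and 12.9 CPM in those of E20/p53, a log2 change of -2.16 ± 0.11 (adjusted p = 4.96e-10 by limma). Errfi1, an inhibitor of the EGF receptor, stood at 425 ± 12.7 CPM in p53 and 107 ± 12.5 CPM in E20/p53, a change of -1.995 ± 0.17 (adjusted p = 5.52e-07). Pebp1, which binds RAF, was lower in E20 than in WT (-0.53 ± 0.06, 1.42e-06), and Dusp2, a phosphatase of the Dusp family, was higher in p53 (2.80 ± 0.499 CPM) than in WT (0.161 ± 0.126 CPM), with an adjusted p of 4.54e-05. All 21 other ERK-responsive genes and factors were tested, with 5 higher and 7 lower, 2 and 6, 4 and 9, 0 and 5, 0 and 5, and 3 and 3. Egr1, an immediate early gene, went against most of the feedback genes in E20 against WT, rising from 23.9 ± 1.24 to 73.8 ± 6.66 CPM (1.62 ± 0.20, adjusted p = 4.17e-06 by limma). Myc fell there from 148 ± 4.69 to 65.5 ± 7.33 CPM (-1.18 ± 0.09, 2.07e-08), as did Ier3 (-1.37 ± 0.16, 1.96e-06) and Elk3 (-0.71 ± 0.09, 6.98e-06). In E20/p53 against E20 the median changes were 0.17 for ligands, 0.06 for receptors, 0.06 for the relay, -0.00 for the GTPase activating proteins, -0.07 for the other brakes and 0.10 for the ERK-responsive genes, where the 10 feedback genes gave 0.25 and all genes 0.05.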

How the data were processed

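RNA of 18 libraries was sequenced. Per the labels, the library kit was TruSeq Stranded mRNA LT, and per the submitters' processing notes bcl2fastq 1.8.4, Trimmomatic and featureCounts were used with mm10; the aligner, annotation, strand setting and scaling were not given in the sources used here. Deposited values are on a log2 scale, as the authors made them: the log2 of 1 plus the reads, less that of a scaled total per library, 0.939 to 1.12 times the sum of reads. Whole reads came back for 100% of values (tolerance 0.001).

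limma 3.58.1 in R 4.3.3, with the mean-variance trend, was fitted on the deposited log2 values of all 18 libraries, with a mean per group and 14 residual degrees of freedom. Genes had at least 0.635 reads per 1000000 counted reads, or 10 reads at the median depth, in 3 libraries and 15 reads in all. An adjusted p under 0.05 was called. Groups came from the labels. The scripts were tested on simulated data in which the libraries of a group shared a common mean and formed no sets. That test does not show how often calls are wrong with the unlike sets of E20 and E20/p53. Named were the 10 genes, up to 4 genes of each pathway list by adjusted p, and the nearest genes. One pathway gene that this rule takes is not reported here. The members and lists were chosen with earlier results of these data known. Variance between libraries inside a set was a median of 1.24 to 1.93 times counting error. Alternatives were other scalings, offsets, filters, the 2 groups alone, a replicate block, each library or set left out, and 6 set means. Positions and lengths come from GENCODE M21, promoter windows from RefSeq, both on GRCm38.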

Additional observations from a re-analysis of the deposited data

How the results depend on the processing

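Over 60 member changes, the filter settings changed no call and no direction, and of the 24 other pathway changes only that of Nf1 lost its call with libraries or sets left out, plain sums or the block (the filter of 1 CPM in 6 libraries left 22 of the 24 tested, and 6 set means left 0 of them called). With 6 set means (2 residual degrees of freedom) limma called 0 members in each comparison, with 0, 2, 1, 0, 0 and 1 members at an unadjusted p under 0.05, and 1, 8, 1, 0, 0 and 0 genes of all tested, in the order p53, E20 and E20/p53 against WT, E20 and E20/p53 against p53, and E20/p53 against E20. With the 2 compared groups alone, limma called 8 members in p53 against WT, 6 in E20 against p53 and 1 in E20/p53 against p53, and with plain sums 1 in the last. The shares of all genes called were 80.7%, 42.2% and 18.7%, and 27.1% with plain sums. Without E20/p53 1 to 3 it called 8, 9, 6, 8 and 6 members in p53 and E20/p53 against WT, E20 and E20/p53 against p53, and E20/p53 against E20, and 7798 genes in E20 against p53. The shares of all genes were 67.9%, 67.6%, 51.2%, 34.2% and 52.9%. Without E20/p53 4 to 6 it called 8, 6, 8 and 10 members in p53 against WT, E20 and E20/p53 against p53, and E20/p53 against E20, and 7836, 9734 and 9912 genes in the last 3. The shares of all genes were 68.3%, 51.4%, 63.9% and 65.1%. Without E20 4 to 6 it called 1 member and 29% of all genes in E20 against p53. Over single libraries left out, members called ran from 3 to 5, 6 to 9, 4 to 6, 2 to 3, 1 to 4 and 2 to 5, and genes called from 6987 to 8421, 7163 to 8581, 5929 to 7614, 3360 to 4881, 2331 to 4691 and 5840 to 6836, in the order above. The cause of these moves was not tested.

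Directions turned as follows. Without E20/p53 1 to 3, E20/p53 against E20 gave Dusp4 -0.22, Dusp5 0.63, Dusp6 -1.73, Spry1 -0.10, Spred1 -0.15, Etv4 -0.010 and Etv5 -0.57, and E20/p53 against p53 gave Dusp6 -1.05, Spred1 -0.11 and Etv5 -0.62. Without E20/p53 4 to 6, Spry2 was 0.20 against E20, Dusp4 1.24 and Etv4 0.86 against p53, and Dusp6 0.39, Spry4 0.33, Spred1 0.024 and Etv4 0.16 against WT. Without E20 1 to 3, Spry1 was -0.24 in E20 against WT and -0.13 against p53, Etv5 0.040 in E20 against p53 and Spred1 -0.056 in E20/p53 against E20; without E20 4 to 6, Spry4 was -0.24 and Spred1 -0.35 in E20 against p53. With plain sums, Dusp4 was 0.080 in E20/p53 against p53, Dusp5 0.040 in E20/p53 against E20, Spry1 -0.0058 in E20 against WT and Phlda1 -0.12 in p53 against WT (-0.0066 with median-of-ratios factors); with log2 of CPM plus 1, Dusp4 was 0.0074 in E20/p53 against p53. Over single libraries left out, E20/p53 against p53 ran from -0.26 to 0.27 for Dusp4, -0.40 to 0.049 for Etv4 and -0.031 to 0.31 for Etv5, E20/p53 against E20 from -0.25 to 0.081 for Dusp5 and -0.092 to 0.76 for Dusp6, Phlda1 in p53 against WT from -0.00079 to 0.039, and Spred1 in E20 against p53 from -0.047 to 0.12.

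Same-numbered libraries of different groups did not deviate together (r of deviations from group means -0.054 to 0.074), so the replicate numbers were not taken as pairs. With the replicate block, Dusp4 was 0.33 and Etv4 0.21 in E20/p53 against p53, Etv5 was 0.29 in E20 against p53, and 6410 genes were called in E20/p53 against p53; the block added 5 member calls, all of Spry1, and removed 6 (adjusted p by limma): Dusp4 in E20/p53 against WT (0.067), Spred1 in p53 and E20 against WT (0.0799 and 0.0985), Spry2 and Spry4 in E20/p53 against p53 (0.106 and 0.11) and Etv4 in E20/p53 against E20 (0.0522). Depth limits Dusp5 most, at 26 reads in its lowest library.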
